A study of Homo sapiens with 22 samples.

Results

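The transcription factors TEAD1, TEAD2, TEAD3 and TEAD4, their coactivators YAP1 and WWTR1, and the target genes CCN1, CCN2, ANKRD1 and AMOTL2 were followed through melanoma cells that differ in how readily they survive targeted therapy. These 10 genes are a list of symbols, chosen with earlier results of these data known, and all 10 were found in each of the 3 single-cell count tables, among 33538 genes in the first table and 36601 genes in each of the other two. The first table lists CCN1 and CCN2 under their older names CYR61 and CTGF.

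YAP and TAZ, the proteins of YAP1 and WWTR1, carry no DNA-binding domain of their own and act on genes by binding TEAD factors, which recognise the short sequence GGAATG. The kinases of the Hippo pathway phosphorylate YAP and TAZ and hold them outside the nucleus, so that much of their control lies in protein location, which RNA counts do not measure. CCN1 and CCN2 encode secreted proteins of the extracellular matrix, ANKRD1 encodes an ankyrin repeat protein, and AMOTL2 encodes an angiomotin that binds YAP and restrains it. In melanoma, YAP and TEAD activity is known from dedifferentiated cells that have lost the melanocyte programme and tolerate inhibitors of BRAF.

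Untreated WM989 cells, a clonal BRAF-mutant melanoma line with transcribed lineage barcodes, were profiled in the first experiment, and untreated WM983B cells, a second clonal melanoma line, in the second. The third experiment gave barcoded WM989 cells no treatment, the cytokine TGFB1, the TGF-beta receptor inhibitor LY2109761 (TGFBRi) or the PI3K inhibitor GDC-0941 (PI3Ki), with 2 libraries for each of these 4 conditions. Chromatin accessibility was measured by ATAC-seq in WM989 cells sorted as EGFR-high, NGFR-high, EGFR/NGFR-high or Mix, with 3 libraries for each sort. Beside the marker-high sorts, the study's methods name cells negative for both markers. The sort labelled Mix was taken to be these cells. In every single-cell experiment the authors named cells primed, the state that gives rise to resistant colonies, or drug-susceptible, and these names were used as deposited.

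Counts are of UMIs, tags that mark single captured RNA molecules. The first experiment held 12531 cells in 8 wells of 408 to 3841 cells, the second 1449 cells in 1 library, and the third 40021 cells in 8 libraries of 3692 to 6273 cells. Primed cells made up 6.85% to 79.7% of a well in the first experiment, 50.4% of the cells in the second, and 0.647% to 31.3% of a library in the third. Replicates of the third experiment are named r1 and r2 in the cell labels and Mix and Primed in the sample labels, and which is which is not given in the sources used here. In the first experiment all 4 markers of the primed state (EGFR, AXL, NGFR, NT5E) were more than 1.5 times higher in primed cells, and all 6 melanocytic markers (SOX10, MITF, MLANA, PMEL, TYR, DCT) were lower by that margin. Levels are in CPM, a gene's UMIs scaled to a common library total, and of 4 leukocyte and 4 epithelial markers none reached 1 CPM in either state. Of 3 endothelial markers, PECAM1 (22.8 against 0.183 CPM) and VWF (2.47 against 0.312 CPM) were higher in primed cells, while the defining gene CDH5 was at 0.0052 and 0.00358 CPM. Of 4 fibroblast markers, PDGFRA (47.3 against 0.734 CPM) and DCN (6.19 against 1.33 CPM) were higher in primed cells, LUM (16.9 against 32.2 CPM) was lower, and COL3A1 was at 0.167 and 0.00537 CPM. The part of these markers in the results was not tested.

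Among the target genes, CCN2 and ANKRD1 carry more than 1 copy of GGAATG close to their start. The 2 promoters are shown because they are the members with repeated sites, as 300 bases read 5′ to 3′ on the gene's strand from RefSeq on GRCh38.p14, with GGAATG in capitals. That of CCN2 covers chr6:131951323-131951622 and that of ANKRD1 chr10:90921038-90921337, both on the minus strand.
CCN2: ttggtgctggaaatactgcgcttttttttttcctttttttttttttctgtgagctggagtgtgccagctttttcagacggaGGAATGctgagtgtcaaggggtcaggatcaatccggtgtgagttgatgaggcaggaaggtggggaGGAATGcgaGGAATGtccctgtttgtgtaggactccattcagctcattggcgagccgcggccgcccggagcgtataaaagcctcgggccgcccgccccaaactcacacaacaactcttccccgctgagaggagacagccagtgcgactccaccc
ANKRD1: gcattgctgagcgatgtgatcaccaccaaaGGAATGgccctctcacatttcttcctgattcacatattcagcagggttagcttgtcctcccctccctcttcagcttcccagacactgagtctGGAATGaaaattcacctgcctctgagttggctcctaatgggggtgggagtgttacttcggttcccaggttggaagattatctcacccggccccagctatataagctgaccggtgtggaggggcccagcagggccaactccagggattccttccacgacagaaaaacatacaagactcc

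The CCN2 promoter holds GGAATG 169, 104 and 95 bases before the start, and the ANKRD1 promoter 220 and 128 bases before it. GGAATG or its reverse complement CATTCC was found in 14.0% of 35116 RefSeq promoters of the same length, at least 2 copies in 1.37%, and at least 3 in 0.128%. AMOTL2 held 1 copy, 69 bases before 1 of its 2 listed starts and on the opposite strand, and YAP1 held 1 copy 162 bases before its start. The listed promoters of TEAD2, TEAD3 and WWTR1 held none, and the table used has no promoter for CCN1, TEAD1 or TEAD4. A match of letters is a description of the sequence and says nothing on binding.

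In untreated WM989 cells all 4 target genes were higher in primed than in drug-susceptible cells, and so were both coactivators. The first experiment is 1 sample, and its states were called from the same counts, so values are given without a test and with exact Poisson 95% intervals, which cover counting error only. Wells 1 to 4 belong to r1 and wells 5 to 8 to r2. Per the study's methods the cultures were grown from an EGFR/NGFR-high sort and from a mixed sort, each loaded over 2 wells, so that wells are not independent cultures, and which sort a well had is not given in the sources used here. Primed cells were 56.9%, 62.4%, 79.7% and 76.9% of wells 1, 2, 5 and 6 and 7.87%, 6.85%, 9.17% and 9.42% of wells 3, 4, 7 and 8, so that most pooled primed and most pooled drug-susceptible cells come from different wells.

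CCN2 stood at 11.3, 10.5, 7.32, 6.97, 13.8, 12.2, 12.3 and 10.6 CPM in drug-susceptible cells of wells 1 to 8, and at 15.4, 20.8, 17.7, 16.4, 32.5, 29.6, 14.5 and 16.5 CPM in primed cells of the same wells. Every primed value lay above every drug-susceptible value, and among primed cells wells 5 and 6 stood apart from the other 6 wells, also from wells 7 and 8 of the same replicate. Summed over wells, CCN2 reached 23.6 CPM (22.9 to 24.3) in the primed state against 9.28 CPM (9.03 to 9.53), a ratio of 2.54, and the ratio was 2.46 in r1 and 2.41 in r2. Where the mean over wells replaced the sum over cells, it was 1.92.

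AMOTL2 ranged from 11.3 to 12.6 CPM in primed cells of r1 and from 17.8 to 37.8 CPM in those of r2. In drug-susceptible cells it ranged from 3.63 to 6.79 CPM in r1 and from 9.41 to 14.9 CPM in r2. The states did not overlap within a replicate, while drug-susceptible cells of r2 reached the primed level of r1. Within r2 the primed level also differed between wells 5 and 6, at 36.3 and 37.8 CPM, and wells 7 and 8, at 17.8 and 23.0 CPM. The pooled ratio of 3.41 therefore holds differences between wells and between replicates. The ratio was 2.80 in r1, 3.24 in r2 and 2.35 from the mean over wells.

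ANKRD1 and CCN1 were close to the limit of detection in drug-susceptible WM989 cells. ANKRD1 gave 15 UMIs in 9688 drug-susceptible cells and 219 in 2843 primed cells, or 0.0269 and 1.14 CPM, a ratio of 42.4 (25.2 to 77.1). Of the 15 UMIs only 1 came from r1, where the ratio was 295 with a counting interval of 51.5 to 11781, against 21.9 (12.6 to 41.2) in r2. CCN1 gave 18 and 107 UMIs, or 0.0322 and 0.557 CPM, a ratio of 17.3 (10.4 to 30.3). Both genes were higher in primed cells in 8 of 8 wells, although single wells rest on as few as 1 primed UMI for CCN1 and 3 for ANKRD1.

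At least 1 UMI of ANKRD1 was seen in 3.34% of primed cells, at a median depth of 58253 UMIs per cell, and in 0.103% of drug-susceptible cells, at a median of 52835. With every cell thinned to 10000 UMIs these shares were 0.98% (0.655 to 1.42) and 0.031% (0.00639 to 0.0905). No cell type known to lack the gene is present in these cultures to give a background level. For CCN2 the thinned shares were 13.6% in primed and 7.58% in drug-susceptible cells.

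Both coactivators were higher in primed cells of every well. WWTR1 ranged over the 8 wells from 95.9 to 126 CPM in drug-susceptible and from 152 to 207 CPM in primed cells, with pooled levels of 109 and 174 CPM and a ratio of 1.60. YAP1 ranged from 19.5 to 30.6 CPM in drug-susceptible and from 26.4 to 47.9 CPM in primed cells, with a pooled ratio of 1.68 and a ratio of 1.47 from the mean over wells. The ranges of WWTR1 did not overlap, and those of YAP1 overlapped between replicates, since r2 was higher in both states.

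The TEAD factors did not share this pattern. TEAD4 was lower in primed cells in 8 of 8 wells, with 27.1 to 35.1 CPM in drug-susceptible and 17.3 to 21.6 CPM in primed cells and a pooled ratio of 0.70. TEAD1 was at 46.9 CPM (46.3 to 47.4) in drug-susceptible and 48.4 CPM (47.4 to 49.4) in primed cells when wells were pooled, yet it was lower in primed cells in 7 of 8 wells, and the ratio was 0.97 in r1 and 0.98 in r2. Its level differed more between replicates than between states, with 37.2 and 36.0 CPM in drug-susceptible and primed cells of r1 and 62.5 and 61.4 CPM in those of r2. Sums of TEAD2 and TEAD3 went in opposite directions in the replicates, while by well TEAD2 was higher in primed cells in 2 of 8 and TEAD3 in 3 of 8, all in r1. TEAD3 was at 1.85 CPM (1.71 to 1.996) in drug-susceptible and 2.60 CPM (2.295 to 2.94) in primed cells of r1, and at 2.68 CPM (2.46 to 2.91) and 2.16 CPM (1.88 to 2.48) in those of r2. TEAD2 was at 9.54 and 10.7 CPM in r1 and at 9.88 and 8.501 CPM in r2, with pooled levels of 9.67 and 9.61 CPM. The higher primed sum of TEAD2 in r1 was not seen well by well, since wells 1 to 4 stood at 11.8, 11.2, 9.65 and 8.77 CPM in drug-susceptible and 10.3, 11.3, 7.83 and 8.99 CPM in primed cells.

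**Figure D1:**
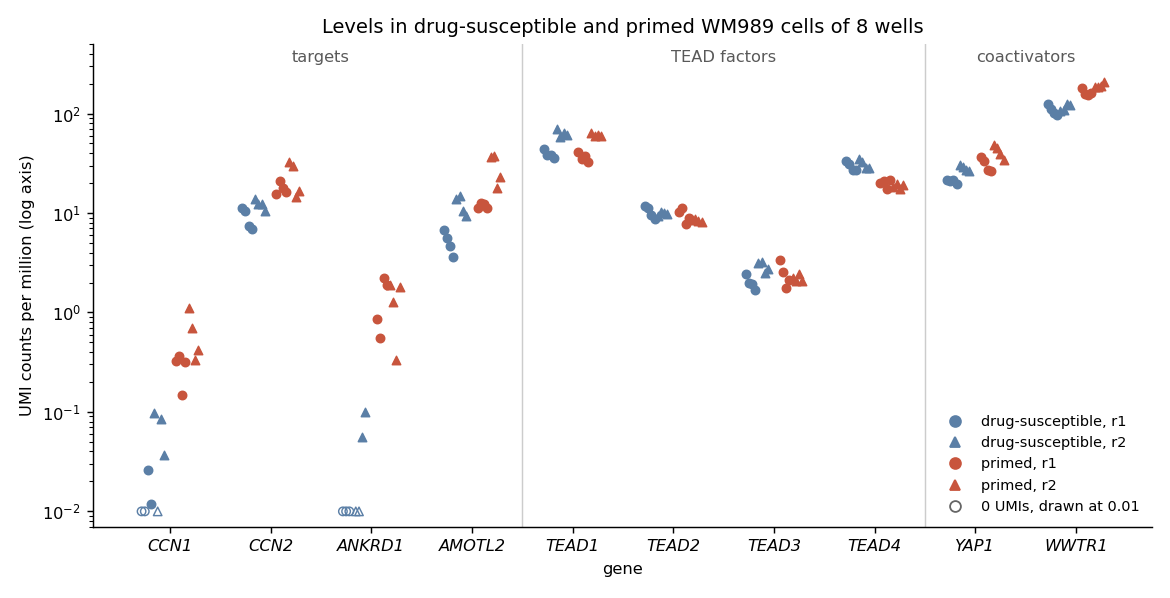
Level of each gene in CPM on a log axis, in drug-susceptible (blue) and primed (red) WM989 cells of the 8 untreated wells, with r1 as circles and r2 as triangles and a count of 0 drawn as an open symbol at 0.01. CCN2 and WWTR1 are separated between states over all 8 wells, TEAD4 is separated the other way, and TEAD1 is separated by replicate.

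Of the 9 members with at least 1 CPM in either state, 5 (CCN2, ANKRD1, AMOTL2, YAP1, WWTR1) were over 1.5 times higher in primed cells in the same direction in both replicates, where 22.5% of 13194 genes met the same rule, and none was lower by that margin, where 15.0% of genes were. TEAD4 came close, and it passed that margin in r2 alone (0.659) and from the mean over wells (0.639), where YAP1 no longer did. CCN1 fell under the minimum of 1 CPM. The median log2 ratio of the 9 members was 0.68, beside 0.07 over all genes tested.

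In WM983B cells the same 4 target genes and WWTR1 were higher in primed cells, and CCN1 was far above its level in WM989. The state markers parted less clearly than in WM989, with 3 of 4 primed markers higher (not EGFR, at 3.13 and 2.21 CPM) and 4 of 6 melanocytic markers lower (not SOX10 or TYR). Of markers of other cell types, the leukocyte gene LYZ (21.6 against 11.7 CPM) and the epithelial gene KRT14 (1.33 against 0.427 CPM) were also higher in primed cells, while the defining genes PTPRC and EPCAM stayed at or below 0.167 CPM. The part of these markers in the results was not tested. CCN1 stood at 107 CPM (104 to 109.7) in the primed and 27.5 CPM (26.1 to 28.9) in the drug-susceptible WM983B cells, a ratio of 3.89. In WM989 the same gene was at 0.557 and 0.0322 CPM, although the lines were profiled in separate experiments and the difference between them was not tested. The other targets had ratios of 1.89 for CCN2 (37.9 against 20.1 CPM), 1.71 for AMOTL2 (39.2 against 22.9 CPM) and 7.09 for ANKRD1 (2.50 against 0.352 CPM, from 122 and 19 UMIs). All 19 drug-susceptible UMIs of ANKRD1 lay in cluster 3, so that its ratio joins 2 unlike groups of cells.

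WWTR1 was at 241 CPM in the primed and 160.4 CPM in the drug-susceptible WM983B cells, a ratio of 1.504, just over the margin of 1.5. The ratios of YAP1 (1.12), TEAD1 (1.11), TEAD2 (0.93), TEAD3 (1.12) and TEAD4 (0.99) were all within 1.5 times. TEAD4, lower in primed WM989 cells, was at 7.58 CPM (6.82 to 8.39) in primed WM983B cells against 7.68 CPM (6.96 to 8.46). With 5 of 10 members higher, the share among all 13769 genes tested was 7.77%, and 3.28% were lower.

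The 2 primed clusters of WM983B differed from each other more than the 2 states did for some members. CCN1 was at 119.5 CPM in cluster 0 and 22.9 CPM in cluster 2, both primed, and at 20.8 CPM in cluster 1 and 68.7 CPM in cluster 3, both drug-susceptible. AMOTL2 followed the same order of clusters 0 and 3 above clusters 1 and 2, with 42.6, 31.9, 21.5 and 16.9 CPM. ANKRD1 was at 2.78 CPM in cluster 0 and 2.54 CPM in cluster 3, with overlapping intervals, at 0.62 CPM in cluster 2, and at 0 UMIs in the 628 cells of cluster 1, which allows up to 0.0646 CPM if a count of 0 is read as at most 3. WWTR1 was at 278 CPM in cluster 2 and 236 CPM in cluster 0, above 172 and 159 CPM in clusters 3 and 1. Clusters 2 and 3 hold 91 and 90 cells, so that the pooled ratios mostly compare cluster 0 with cluster 1, and with cluster 1 alone as drug-susceptible the ratio of CCN1 was 5.13.

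Members also varied among the clusters of the first experiment, of which clusters 2, 8 and 9 are primed. Levels by cluster are pooled over the wells, which differ in level as given above. CCN2 stood at 29.9, 20.4 and 10.9 CPM in clusters 2, 8 and 9, and drug-susceptible clusters 4 and 6 reached 17.4 and 14.6 CPM, above primed cluster 9. Among primed cells CCN2 was at 28.0 CPM in G1, 19.4 CPM in S and 8.45 CPM in G2/M by the deposited cell cycle calls. In drug-susceptible cells the same phases were at 10.99, 6.88 and 11.5 CPM, so that in G2/M CCN2 was lower in primed cells. Of 2843 primed cells 2095 were in G1, and of 9688 drug-susceptible cells 2473 were.

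When pooled over wells, WWTR1 and AMOTL2 kept the 3 primed clusters on top of the order. WWTR1 was at 187, 158 and 156 CPM in clusters 2, 8 and 9, of which the last pair had overlapping intervals, and at 139.8 CPM in cluster 4, the highest drug-susceptible cluster. AMOTL2 was at 25.7, 22.4 and 17.1 CPM in them and at most 10.6 CPM elsewhere. YAP1 was at 41.9 and 39.4 CPM in clusters 9 and 2, which overlapped, and at 29.0 CPM in primed cluster 8, which overlapped drug-susceptible cluster 10 at 27.7 CPM. TEAD4 was lowest in the 3 primed clusters, at 19.4, 20.01 and 21.0 CPM in clusters 2, 9 and 8, but clusters 9 and 8 overlapped drug-susceptible cluster 6 at 22.6 CPM. In S phase the primed level of TEAD4, 30.9 CPM, was close to the 32.1 CPM of drug-susceptible cells.

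Across the 11 clusters of the first and 13 clusters of the third experiment, members were compared by Pearson's r of log2(CPM + 1), centred within each experiment. These 24 points share libraries and were formed from the same counts, so r is a description only. The 4 targets correlated with each other at r between 0.50 (CCN1 and CCN2) and 0.85 (ANKRD1 and AMOTL2). WWTR1 correlated with them at 0.56 to 0.71 and YAP1 at 0.47 to 0.77, whereas TEAD4 was negative against each target, from -0.59 to -0.70, and TEAD1 lay between 0.08 and 0.21.

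Among 7454 genes with at least 10 CPM on average, the genes most like CCN2 over these clusters were GLT8D1 (0.86), LEPROT (0.85) and SERPINE2 (0.84), a secreted protease inhibitor. Those most like AMOTL2 were NDRG1 (0.96), PLD3 (0.96) and MYOF (0.96), the last itself on the fixed list of YAP/TEAD targets. CCN1 was followed by SERINC2 (0.96), TGFB1 (0.95) and SYNJ2 (0.95), and ANKRD1 by MORN2, C4orf3 and MMP1, all at 0.89. Both rest on low counts, with at most 6 UMIs in any drug-susceptible cluster of the first experiment. CCN1 gave at most 20 UMIs in any cluster of the third. For WWTR1 the most alike were ELF2, EPM2AIP1 and FTX (0.87 to 0.89), for YAP1 MKLN1, FMNL2 and SP100 (0.92 to 0.93), and for TEAD1 TRIM44, OTUD4 and ACBD5 (0.89 to 0.90). Those of TEAD1 were at 0.64, 0.72 and 0.80 in the first experiment alone and at 0.97, 0.95 and 0.93 in the third.

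Of the other genes of the pathway, those that act with or on YAP moved in both directions between the states of WM989. On a fixed list of 26 Hippo pathway genes, 24 were tested, 7 were higher and 3 lower in primed cells, near the 22.5% and 15.0% of all genes, and the median of their log2 ratios was 0.39, beside 0.07 over all genes. Of these, PTPN14, a phosphatase that binds YAP, had the largest ratio (3.73), followed by AJUBA, a LIM protein that binds the LATS kinases (3.54), and AMOTL1, an angiomotin (3.36). FRMD6, an upstream activator of the kinases, was lower (0.40). In WM983B 6 of 25 were higher and none lower, beside 7.77% and 3.28% of all genes, led by AJUBA (2.76), VGLL3 (2.58), a TEAD-binding cofactor, FAT4 (1.98), an atypical cadherin, and PTPN14 (1.70).

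On a list of 18 other YAP/TEAD targets from a pan-cancer signature, 13 of 17 tested in WM989 were higher and 1 lower in primed cells, beside 22.5% and 15.0% of all genes. The median of the log2 ratios was 1.90, and the list was led by AXL (90.1), CRIM1 (21.7), CCDC80 (19.5) and IGFBP3 (19.3), while the lower gene was TGFB2 (0.57), named after its value was seen. In WM983B 11 of 16 were higher and none lower, beside 7.77% and 3.28%, with a median of 0.83, led by AXL (3.15), NUAK2 (3.06), MYOF (2.59) and IGFBP3 (2.57). AXL, a receptor tyrosine kinase, and NT5E stand both on this list and among the markers of the primed state, and PTPN14 and LATS2 stand on both pathway lists.

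The third experiment asked what a change in TGF-beta or PI3K signalling does to these cells. Each library's cells were added up gene by gene and the sums tested with edgeR's quasi-likelihood test with a term for replicate, two-sided, with Benjamini-Hochberg adjustment over all genes kept. The study's methods describe the replicates as samples carried in parallel, while the sample labels call 1 library of each treatment Mix and 1 Primed. The replicates may therefore differ in starting population, which the replicate term would take up, and p-values measure the spread between these libraries. Of a fixed check list of 6 genes of the TGF-beta response, 6 rose under TGFB1 (beside 16.3% of all genes), 3 fell under TGFBRi (beside 1.45%) and 2 fell under PI3Ki (beside 6.83%). PMEPA1, a feedback inhibitor of the pathway, had a log2 fold change of 6.08 under TGFB1 and -2.35 under TGFBRi.

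TGFB1 raised CCN2 in all cells of a library from 6.94 and 7.49 CPM (untreated r1 and r2) to 24.5 and 21.3 CPM. Its log2 fold change was 1.64 ± 0.10 (SE, adjusted p = 1.0e-11, edgeR), the groups did not overlap, and the call held in all 13 alternatives. AMOTL2 rose from 3.87 and 4.96 CPM to 6.23 and 6.58 CPM (log2 0.53 ± 0.10, adjusted p = 0.00028, edgeR).

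ANKRD1 rose from 0.01 and 0.07 CPM to 0.61 and 1.29 CPM, or from 7 to 158 UMIs, a ratio of pooled levels of 21.7 (10.3 to 54.8, counting error only). The fitted log2 fold change was 4.403 ± 0.503 (adjusted p = 4.2e-07, edgeR), and it was 3.86 without TGFB1 r1 and 7.41 without TGFB1 r2, with 1 and 6 UMIs in the untreated libraries. CCN1 gave 3 and 3 UMIs in untreated and 9 and 12 in TGFB1 libraries and was too low to be tested with the filter used, here and in drug-susceptible or primed cells alone under any treatment.

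WWTR1 rose less than the targets, from 181 and 173 CPM to 209 and 212 CPM (log2 0.24 ± 0.07, adjusted p = 0.0079, edgeR). Of the TEAD factors 3 of 4 went the other way. TEAD4 fell from 23.0 and 24.7 CPM to 18.4 and 20.7 CPM (log2 -0.30 ± 0.07, adjusted p = 0.0013, edgeR), and TEAD3 (log2 -0.52, adjusted p = 0.0076, edgeR) and TEAD2 (log2 -0.27, adjusted p = 0.018, edgeR) also fell. TEAD1 (log2 -0.14, adjusted p = 0.12, edgeR) and YAP1 (log2 -0.06, adjusted p = 0.56, edgeR) did not pass the threshold. In total 7 of 9 tested members passed, beside 29.0% of all 18389 genes. Of these 4 were higher, beside 16.3% of genes, and 3 lower, beside 12.7%. TEAD2 and TEAD3 lost their calls with DESeq2 and with G1 cells only. Without untreated r1 only 4 passed, with TEAD2, TEAD3 and WWTR1 lost. The median log2 fold change of the 9 members was -0.06, beside 0.01 over all genes.

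These sums hold a change in the makeup of the libraries. Primed cells were 2.26% and 4.47% of untreated and 29.1% and 31.3% of TGFB1 libraries, and fewer or more cells of a state and a change per cell cannot be told apart in sums over all cells. The primed cells themselves also differ, since 98.2% and 97.1% of those in TGFB1 libraries lie in cluster 4 and at most 3 of 25 do in any other library, the rest being in cluster 10. Among drug-susceptible cells, cluster 3 holds 4007 cells of which 94.9% come from TGFB1 libraries, where it makes up 40.3% and 28.8% of all cells. States were named from cells harvested after treatment, and the paper concludes from lineage barcodes that TGFB1 switches drug-susceptible cells into the primed state. Within a named state, a change in the same cells and a change in which cells carry the name cannot be told apart.

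Within drug-susceptible cells TGFB1 raised CCN2 by a like amount. It went from 6.80 and 7.25 CPM to 25.0 and 21.7 CPM (log2 1.71 ± 0.10, adjusted p = 9.2e-12, edgeR). Without cluster 3, an alternative chosen after seeing the data, the log2 fold change was 0.70 ± 0.11 (adjusted p = 6.5e-05, edgeR). CCN2 in cluster 3 was at 37.4 and 43.7 CPM in TGFB1 libraries, and at 6.95 CPM (6 UMIs in 56 cells) and 53.2 CPM (54 UMIs in 59 cells) in untreated r1 and r2, so that the level of this cluster without TGFB1 rests on few cells that disagree.

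WWTR1 in drug-susceptible cells went from 178 and 167 CPM to 201 and 198 CPM (log2 0.19 ± 0.07, adjusted p = 0.049, edgeR), and without cluster 3 its log2 fold change was -0.14 (adjusted p = 0.22, edgeR). TEAD2 fell (log2 -0.26 ± 0.09, adjusted p = 0.047, edgeR). The call of TEAD2 was lost in 10 of 14 alternatives and that of WWTR1 in 9, with 1 more turned, while that of CCN2 held in 14 of 14. TEAD4 (log2 -0.18, adjusted p = 0.072, edgeR) and AMOTL2 (log2 0.28, adjusted p = 0.097, edgeR) did not pass. With CCN2, WWTR1 and TEAD2, 3 of 8 tested members passed, beside 14.9% of 17914 genes, with 2 higher (beside 8.56%) and 1 lower (beside 6.32%). ANKRD1 was too low to be tested in these cells, at 0.00 and 0.03 CPM untreated and 0.10 and 0.51 CPM after TGFB1.

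In cells named primed, WWTR1 was lower under TGFB1, at 232 and 253 CPM against 322 and 363 CPM untreated (log2 -0.42 ± 0.12, adjusted p = 0.013, edgeR). This was the single call among 8 tested members, beside 13.3% of 10930 genes, 6.21% higher and 7.09% lower. It was lost without any one of the untreated or TGFB1 libraries, with log2 values from -0.49 to -0.33, and with no filter on low counts (-0.33). CCN2 in primed cells was at 14.9 and 14.9 CPM untreated and 23.0 and 20.04 CPM after TGFB1 (log2 0.57 ± 0.24, adjusted p = 0.12, edgeR). With cluster 10 alone as primed, chosen after seeing the data, the log2 fold change of CCN2 was 1.47 ± 0.39 (adjusted p = 0.035, edgeR) and that of WWTR1 was -0.17 (adjusted p = 0.77, edgeR). The level of WWTR1 was 231 and 250.2 CPM in cluster 4 of the TGFB1 libraries and 261 to 413 CPM in cluster 10 over all 8 libraries.

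**Figure D2:**
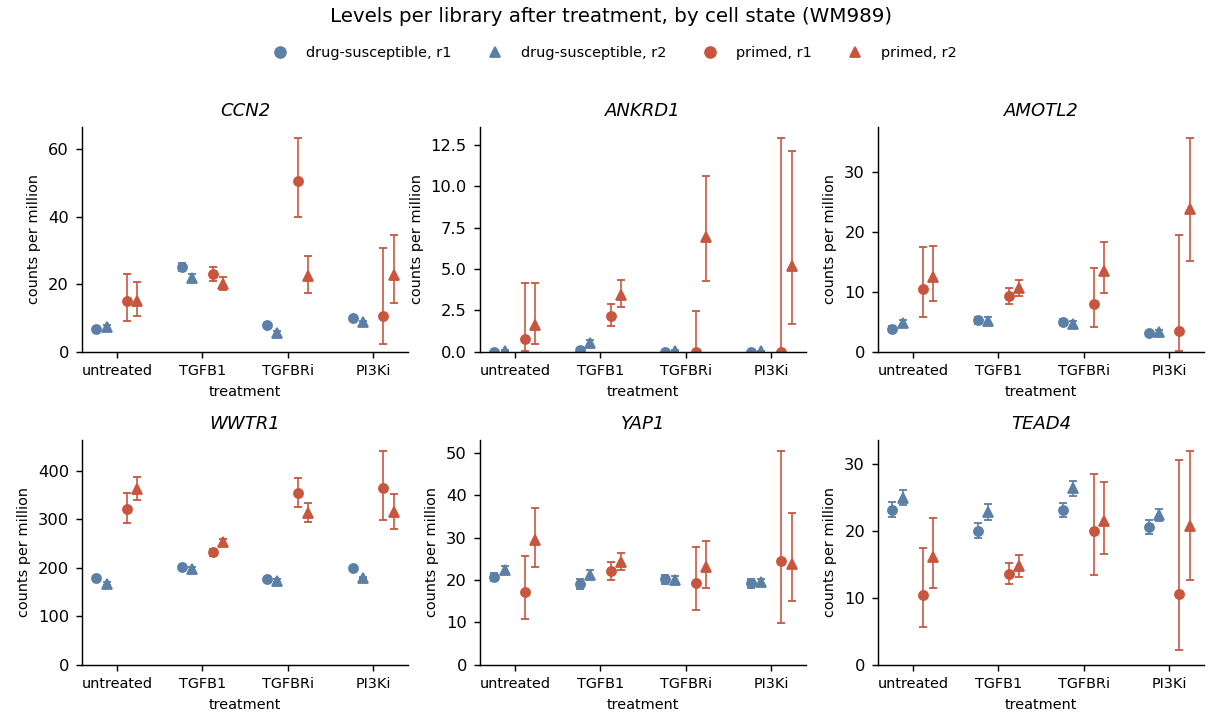
Level in CPM of 6 members in drug-susceptible (blue) and primed (red) cells of each library, by treatment, with r1 as circles, r2 as triangles and bars for the exact Poisson 95% interval. CCN2 in drug-susceptible cells is highest under TGFB1, at 25.0 and 21.7 CPM, and WWTR1 in primed cells is lowest there, at 232 and 253 CPM.

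The contrast of TGFB1 with untreated cells differed between the states, as named after treatment, for 2 of 10 members. The test was of the difference itself, and 9.98% of 18502 genes passed it, 5.49% higher and 4.49% lower. The log2 effect in primed minus that in drug-susceptible cells was -1.02 ± 0.24 for CCN2 (adjusted p = 0.0006, edgeR) and -0.55 ± 0.09 for WWTR1 (adjusted p = 6.5e-08, edgeR). With only cluster 10 as primed these were -0.20 and -0.35, and with drug-susceptible cells without cluster 3 they were -0.02 and -0.22, none past the threshold. Without untreated r2 neither passed (-1.03 and -0.36), and without TGFB1 r1 WWTR1 was lost (-0.42).

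Pooled over all libraries of the third experiment, CCN2 was at 39.6 and 32.6 CPM in drug-susceptible clusters 3 and 12, at 25.8 and 20.8 CPM in primed clusters 10 and 4, and at no more than 9.93 CPM in the other 9. These levels mix treatments, since clusters 3 and 4 come mostly from TGFB1 libraries and cluster 10 does not. Within TGFB1 r1 and r2, cluster 10 was at 36.5 and 47.1 CPM (29 and 51 cells), cluster 3 at 37.4 and 43.7 CPM, and cluster 4 at 22.7 and 19.3 CPM, so that clusters 10 and 3 took a different order in each replicate. Cluster 12 holds 114 cells, and its 2 libraries with enough cells lay at 7.10 and 92.9 CPM.

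ANKRD1 was at 4.85 CPM in cluster 10, 2.42 CPM in cluster 4, 0.615 CPM in cluster 3 and at most 0.0949 CPM elsewhere when pooled. Of the 50 UMIs in cluster 10, TGFBRi r2 gave 21 and TGFB1 r2 gave 18, while the r1 libraries gave 0, 0, 1 and 1, so that the order of clusters 10 and 4 is not resolved in r1. AMOTL2 was at 13.7, 9.67 and 7.65 CPM in clusters 10, 4 and 3 when pooled. In untreated cells it was at 11.3 and 12.97 CPM in cluster 10 of r1 and r2 and at 9.27 and 24.6 CPM in cluster 3, which changes the order in r2.

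WWTR1 was at 339 CPM in cluster 10, 255 CPM in cluster 3 and 241 CPM in cluster 4 when pooled, none of which overlapped, and within TGFB1 r1 and r2 at 261 and 362 CPM, 252 and 262 CPM, and 231 and 250.2 CPM in the same clusters. YAP1 varied little, between 19.2 and 24.0 CPM in 12 clusters, with cluster 11 at 13.6 CPM. TEAD4 was at 14.2 CPM (13.03 to 15.3) in primed cluster 4 and 17.7 CPM (15.3 to 20.5) in primed cluster 10, whose interval overlapped drug-susceptible clusters 5, 6, 1, 7, 8 and 12 at 18.7 to 23.7 CPM. It was at 28.1 CPM in cluster 2.

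**Figure D3:**
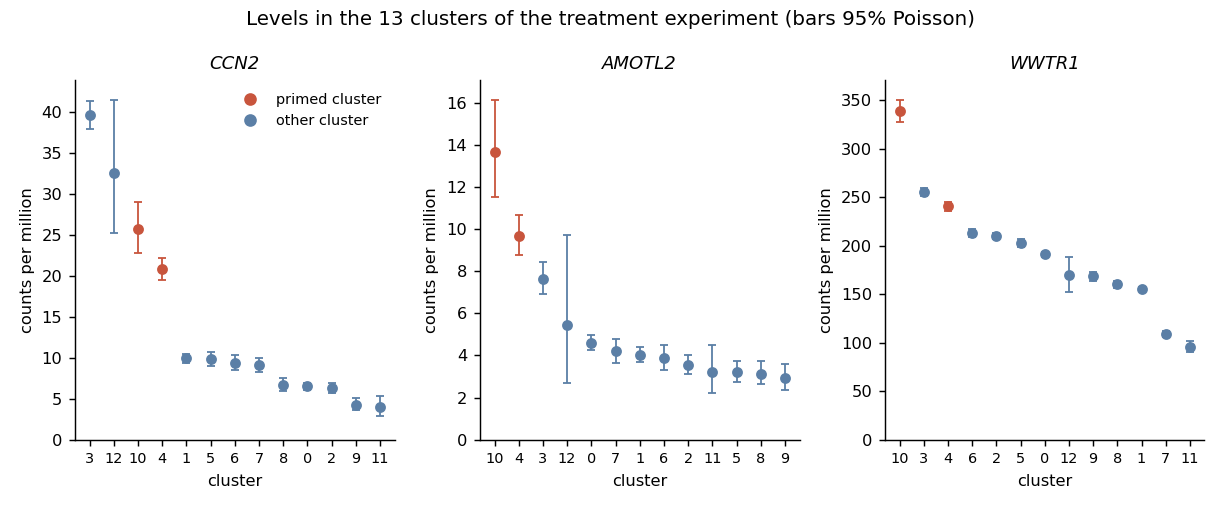
Level in CPM of CCN2, AMOTL2 and WWTR1 in the 13 clusters of the treatment experiment, pooled over its 8 libraries and in falling order, with primed clusters in red, other clusters in blue and bars for the exact Poisson 95% interval. Pooled CCN2 is at 39.6 CPM in drug-susceptible cluster 3, and in primed cluster 10 pooled WWTR1 is at 339 CPM and AMOTL2 at 13.7 CPM. The order mixes treatments, and within TGFB1 libraries clusters 3 and 10 take a different order for CCN2 in each replicate.

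The state difference seen in untreated cells of the first experiment was also measured in each condition of the third. In untreated cells the primed level over the drug-susceptible level was 2.12 (1.59 to 2.77) for CCN2, 2.77 (2.003 to 3.75) for AMOTL2, 2.02 (1.91 to 2.14) for WWTR1 and 0.585 (0.439 to 0.766) for TEAD4, with counting intervals. Under TGFB1 the ratio was 0.92 (0.85 to 0.99) for CCN2, 1.92 (1.70 to 2.18) for AMOTL2, 1.22 (1.19 to 1.25) for WWTR1 and 0.66 (0.60 to 0.72) for TEAD4. YAP1, 1.68 times higher in primed cells of the first experiment, had a ratio of 1.16 (0.941 to 1.43) in untreated cells of the third, and 1.15 (1.07 to 1.24) under TGFB1. Under TGFBRi the ratio was 4.77 (3.98 to 5.68) for CCN2, 2.43 (1.80 to 3.21) for AMOTL2, 1.87 (1.77 to 1.97) for WWTR1, 0.85 (0.68 to 1.04) for TEAD4 and 1.09 (0.886 to 1.34) for YAP1. Under PI3Ki it was 1.75 (1.58 to 1.93) for WWTR1, 0.85 (0.54 to 1.27) for TEAD4 and 1.24 (0.834 to 1.77) for YAP1. By counting error alone, the lower TEAD4 of primed cells was thus not resolved under TGFBRi or PI3Ki, nor was the higher YAP1 in any condition but TGFB1. These intervals do not cover the spread between libraries. TEAD1 had a ratio of 1.18 (1.063 to 1.31) in untreated cells, 1.02 (0.976 to 1.056) under TGFB1, 1.24 (1.13 to 1.36) under TGFBRi and 1.08 (0.877 to 1.32) under PI3Ki. TEAD3 was lower in primed cells under TGFB1, at 0.485 (0.327 to 0.699), and its intervals in the other 3 conditions and those of TEAD2 in all 4 held 1. ANKRD1 had a ratio of 9.09 (6.27 to 13.5) under TGFB1, from 120 and 38 UMIs, but it was larger in r1 than in r2. In r1 and r2 of TGFB1, ANKRD1 was at 2.13 and 2.71 CPM in primed cluster 4. Its level in drug-susceptible cluster 3 was 0.167 and 1.26 CPM, a spread the counting interval does not cover. In each other condition ANKRD1 gave 5 to 21 primed and 2 drug-susceptible UMIs, too few for a close ratio, and CCN1 gave at most 20 UMIs in any of these sums.

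For CCN2 and AMOTL2 under PI3Ki the pooled ratios, 2.21 and 6.10, rest on r2. There AMOTL2 was at 23.9 CPM in primed (23 UMIs) and 3.20 CPM in drug-susceptible cells, and in r1 at 3.504 CPM (1 UMI) and 3.06 CPM. CCN2 was at 22.8 CPM (22 UMIs) and 8.62 CPM in r2, and at 10.5 CPM (3 UMIs) and 9.83 CPM in r1. The primed sums of the untreated libraries rest on 94 and 165 cells.

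Under PI3Ki the members that passed went in different directions. In all cells CCN2 rose from 6.94 and 7.49 CPM to 9.84 and 8.73 CPM (log2 0.46 ± 0.10, adjusted p = 0.0036, edgeR), and WWTR1 passed narrowly, at 201 and 179 CPM against 181 and 173 CPM (log2 0.20 ± 0.07, adjusted p = 0.043, edgeR). AMOTL2 fell from 3.87 and 4.96 CPM to 3.06 and 3.37 CPM (log2 -0.35 ± 0.11, adjusted p = 0.032, edgeR). These 3 of 9 members compare with 12.7% of all genes, the 2 higher with 5.83% and the 1 lower with 6.83%. The other 6 ranged from -0.32 (ANKRD1) to 0.03 (TEAD2) on the log2 scale. Without a replicate term none of the 3 passed. Without PI3Ki r2 none passed, and without PI3Ki r1 or either untreated library 1 did.

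In drug-susceptible cells under PI3Ki, CCN2 (log2 0.49 ± 0.10, adjusted p = 0.0020, edgeR) and WWTR1 (log2 0.23 ± 0.07, adjusted p = 0.024, edgeR) passed, 2 of 8 beside 12.1% of genes, of which 5.89% were higher and 6.22% lower. The call of CCN2 was lost in 3 of 14 alternatives and that of WWTR1 in 5, both without a replicate term. AMOTL2 in these cells was at 3.75 and 4.72 CPM untreated and 3.06 and 3.20 CPM after PI3Ki (adjusted p = 0.052, edgeR). Only 25 and 70 primed cells remained in the PI3Ki libraries, 0.647% and 1.21% of cells, and no member passed there by edgeR or DESeq2, beside 1.78% of genes, 0.467% higher and 1.32% lower. None of the members had an unadjusted p under 0.05 in that test.

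TGFBRi left no member past the threshold in all cells by edgeR or DESeq2, 0 of 9 beside 2.53% of genes, 1.09% higher and 1.45% lower. In drug-susceptible cells it was 0 of 8 beside 2.81%, 1.22% higher and 1.59% lower, and in both fits none had an unadjusted p under 0.05. In all cells their log2 fold changes ranged from -0.21 (TEAD3) to 0.20 (AMOTL2), with ANKRD1 at 1.57 ± 0.76 (adjusted p = 0.39, edgeR). CCN2 was at 8.70 and 6.04 CPM in all cells under TGFBRi, on both sides of the untreated 6.94 and 7.49 CPM. CCN1 gave 0 UMIs in both TGFBRi libraries, which by the same limit of 3 counts allows up to 0.0364 and 0.0343 CPM, against 3 UMIs in each untreated library, 0.0384 and 0.0374 CPM, which is itself at this floor, so that no ratio is given.

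In primed cells under TGFBRi, CCN2 was at 50.7 and 22.5 CPM against 14.9 and 14.9 CPM untreated (log2 1.13 ± 0.27, adjusted p = 0.040, edgeR), 1 of 8 members beside 0.375% of genes, 0.0732% higher and 0.302% lower. The 2 TGFBRi libraries, of 118 and 271 primed cells, lie far apart. The call was lost in 8 of 14 alternatives, and without TGFBRi r1 the log2 fold change was 0.68.

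**Figure D4:**
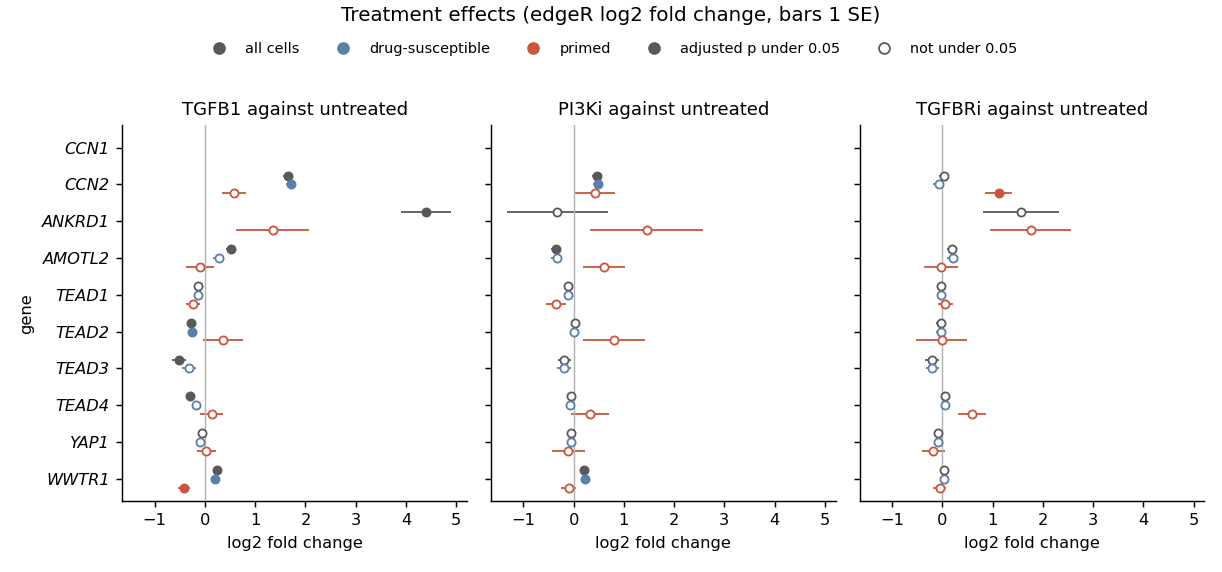
Log2 fold change against untreated of each tested member by edgeR, for all cells (grey), drug-susceptible cells (blue) and primed cells (red), with bars of 1 SE and filled circles for an adjusted p under 0.05. CCN2 under TGFB1 stands at 1.64 in all and 1.71 in drug-susceptible cells and ANKRD1 at 4.403 in all cells, while most TEAD factors lie near or below 0, and CCN1 was not tested.

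Among the other pathway genes under TGFB1 in all cells, 10 of 25 tested Hippo genes rose and 3 fell, beside 16.3% and 12.7% of all genes, with a median log2 fold change of 0.13. The 4 with the smallest p all rose, namely PTPN14 (log2 1.101), FRMD6 (1.058), AMOTL1 (0.85) and VGLL3 (3.72). In drug-susceptible cells 6 of 24 rose and 3 fell, beside 8.56% and 6.32%, led by FRMD6 (1.23), AMOTL1 (0.74), PTPN14 (0.50) and VGLL4 (0.56), a TEAD-binding repressor. FRMD6 was thus lower in primed than in drug-susceptible cells of the first experiment and higher after TGFB1 in the third.

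Of the 18 other YAP/TEAD targets, 11 rose and 1 fell under TGFB1 in all cells, beside 16.3% and 12.7% of all genes (median log2 0.51), led by AXL (3.72), PTPN14, MYOF (2.38) and CCDC80 (1.92). In drug-susceptible cells 6 rose and 1 fell, beside 8.56% and 6.32%, with AXL at 3.03, MYOF at 1.57 and RBMS3 at 1.07. Under PI3Ki in all cells none rose and 7 of 18 fell, beside 5.83% and 6.83% of all genes (median log2 -0.36), led by AXL (-2.23), MYOF (-1.43), TGFB2 (-1.29) and NT5E (-0.49), a direction that CCN2 did not share. In drug-susceptible cells under PI3Ki none rose and 5 of 18 fell, beside 5.89% and 6.22% (median log2 -0.25). Of the 25 Hippo genes tested under PI3Ki in all cells 1 rose, AMOT (0.27), and 3 fell, FAT4 (-1.67), AMOTL1 (-0.31) and WWC2 (-0.24). Under TGFBRi, where 1.09% of all genes rose and 1.45% fell, 1 of 25 Hippo genes fell, FRMD6 (-0.26), and 1 of 18 other targets rose, ARHGEF17 (0.36). The comparisons of the 3 treatments share the same untreated libraries.

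Chromatin at the members was compared by the fold enrichment of called ATAC-seq peaks, a ratio over local background for which no read depth is given, so that the depth is unknown. The highest peak within 1000 bp of a gene start was tested with limma on log2 fold enrichment, centred on each library's median, over 17599 promoters with a peak in all 12 libraries. CCN1 was the single member past the threshold, and the peak that carries this lies inside the gene.

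The fold enrichment of CCN1 was 6.27, 2.83 and 4.84 in Mix, 9.82, 9.93 and 10.8 in EGFR-high, 12.7, 12.7 and 14.6 in NGFR-high, and 23.5, 11.8 and 14.4 in EGFR/NGFR-high libraries. All 9 marker-high values lay above all Mix values. Against Mix, the log2 difference was 1.78 ± 0.24 in EGFR/NGFR-high (adjusted p = 0.0023, limma), 1.44 ± 0.24 in NGFR-high (adjusted p = 0.0077, limma) and 1.28 ± 0.24 in EGFR-high cells (adjusted p = 0.031, limma). That was 1 of 8 tested members in each sort, beside 1.76% of all promoters in EGFR/NGFR-high (1.22% higher, 0.534% lower), 1.63% in NGFR-high (0.841% and 0.790%) and 0.608% in EGFR-high cells (0.301% and 0.307%). The EGFR-high call was lost without any single EGFR-high library and without Mix 2 or Mix 3. With a minimum -log10 q of 10 on peaks CCN1 could not be tested, since no Mix peak reached it. The -log10 q was 8.26, 1.32 and 4.86 in Mix libraries and 17.1 to 86.0 in marker-high ones, so the Mix values rest on weakly called peaks.

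The summits of this peak lay 889 to 966 bp after the start of CCN1 in all 12 libraries, in intron 2. The peak began at least 631 bp after the start, and not every library had a peak within 500 bp of the start. The window of 300 bases around the middle of these peaks, chr1:85581565-85581864 on hg38, plus strand, is shown because it carries the chromatin difference, and GGAATG, in capitals, occurs 1 time in it. Its first base lies in exon 2 and its last base in intron 2.
CCN1 intron 2: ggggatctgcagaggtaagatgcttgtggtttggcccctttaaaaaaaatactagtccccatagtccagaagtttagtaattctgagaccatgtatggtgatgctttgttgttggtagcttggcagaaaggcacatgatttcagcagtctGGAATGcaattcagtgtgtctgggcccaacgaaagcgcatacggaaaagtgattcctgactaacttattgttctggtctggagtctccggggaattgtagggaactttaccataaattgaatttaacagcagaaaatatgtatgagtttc

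At ANKRD1, a peak at the start (the promoter shown above) was called in all 3 EGFR/NGFR-high libraries, at 5.36, 4.73 and 5.46, and in 2 of 3 NGFR-high libraries, at 5.96 and 4.70. None was called in the 3 EGFR-high or the 3 Mix libraries, so that no test was made. Libraries also differ in how many distinct peak intervals they hold. These were 162436 to 180941 in EGFR/NGFR-high, 149008 to 166985 in EGFR-high and 148575 to 165656 in Mix. NGFR-high 2, with no peak here, held 159891, and NGFR-high 1 and 3 held 170461 and 171428. The part of peak number in these calls was not tested. CCN2, whose promoter holds 3 copies of GGAATG, was open in every sort, with 30.5, 28.3 and 23.7 in Mix and 31.2, 32.1 and 24.8 in EGFR/NGFR-high libraries (log2 difference 0.03 ± 0.14, adjusted p = 0.96, limma).

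WWTR1 has 2 RefSeq starts in these tables with different behaviour. At the start in chr3:149657976-149658275 a peak was called in all 12 libraries, at 39.0, 37.2 and 50.3 in Mix and 63.4, 45.4 and 52.6 in EGFR/NGFR-high. At the start in chr3:149703224-149703523 a peak was called in all 9 marker-high libraries, between 8.81 and 21.7, and in none of the 3 Mix libraries. The start that the gene annotation lists farthest upstream had a peak in 1 of 12 libraries, so WWTR1 was not among the promoters tested.

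At the start of TEAD1 the fold enrichment was 39.9, 38.2 and 38.7 in Mix and 51.5, 48.7 and 51.6 in EGFR/NGFR-high libraries (log2 difference 0.31 ± 0.11, adjusted p = 0.20, limma), which did not overlap but did not pass. In EGFR/NGFR-high cells the difference was -0.07 for YAP1 (adjusted p = 0.90, limma) and -0.12 for AMOTL2 (adjusted p = 0.73, limma). Neither they nor TEAD2, TEAD3 or TEAD4 passed in any sort.

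**Figure D5:**
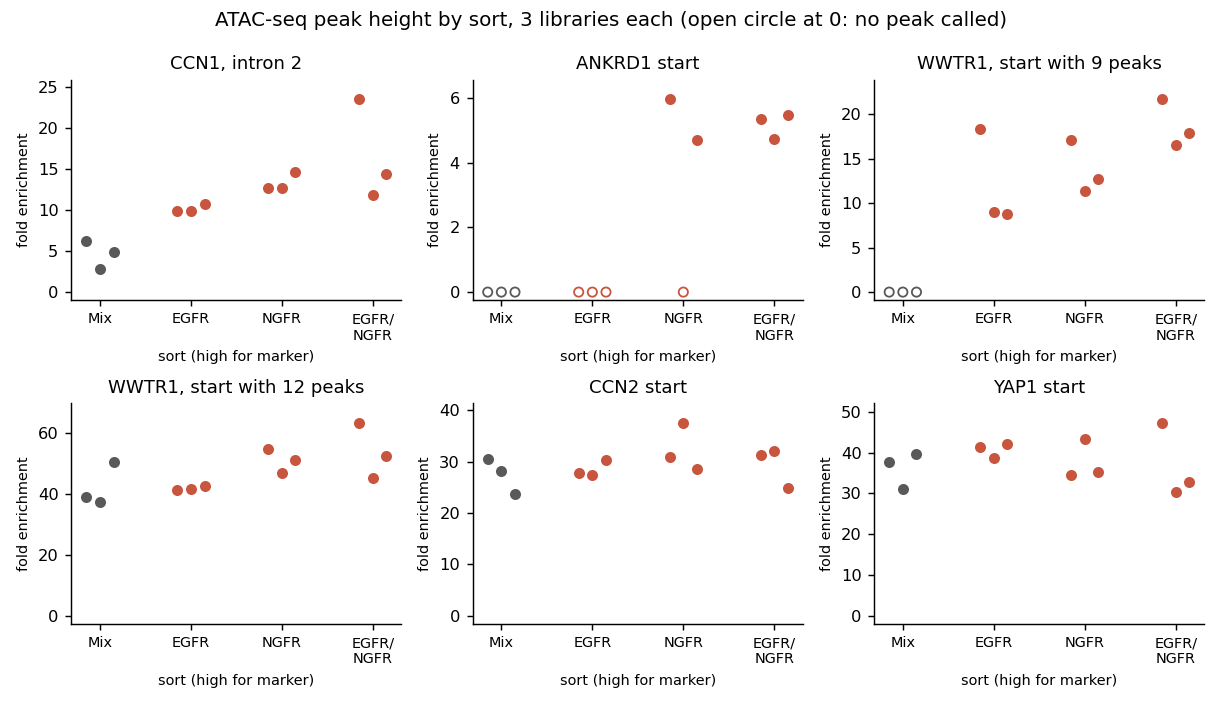
Fold enrichment of ATAC-seq peaks at 6 places near CCN1, ANKRD1, WWTR1, CCN2 and YAP1 in each of the 12 libraries, by sort, with Mix in grey, marker-high sorts in red and an open circle at 0 where no peak was called. CCN1 and 1 of the WWTR1 starts are higher in all 9 marker-high than in all 3 Mix libraries, while CCN2 and YAP1 overlap.

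With the starts included, 205 accessible regions seen in at least 3 libraries lay in or within 50000 bp of the 10 genes. Of these 17 (8.29%) were called in all 3 EGFR/NGFR-high and in no Mix library, beside 4.80% of all 151653 regions, and 3 (1.46%) showed the reverse, beside 0.847%. With 8 of the 17, WWTR1 held most, out of 58 regions around this long gene. TEAD1 held 3, AMOTL2 2, and CCN1, CCN2, ANKRD1 and YAP1 held 1 each. The region at ANKRD1, 98 bp from the start, is the promoter peak already given above. In 3 of the 205 regions (1.46%), 2 at WWTR1 and 1 at TEAD1, all 9 marker-high and no Mix libraries had a peak, beside 0.859% of all regions. Of the 2 at WWTR1, chr3:149702795-149703439 overlaps the start with peaks only in marker-high libraries given above. The region at TEAD1 lies 48275 bp upstream of the start, at chr11:12625403-12626146.

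The region of this kind upstream of CCN2, 44597 bp before the start at chr6:131995969-131996249, was called in 3 EGFR/NGFR-high, 3 NGFR-high, 1 EGFR-high and 0 Mix libraries. It is shown, as the 300 bases around its middle, which reach past both ends of this shorter region, at chr6:131995959-131996258 on hg38, plus strand, because GGAATG and the AP-1 sequence TGANTCA, where N is any base, overlap in it by 2 bases. Capitals mark both, and a second TGANTCA stands before them.
CCN2 upstream: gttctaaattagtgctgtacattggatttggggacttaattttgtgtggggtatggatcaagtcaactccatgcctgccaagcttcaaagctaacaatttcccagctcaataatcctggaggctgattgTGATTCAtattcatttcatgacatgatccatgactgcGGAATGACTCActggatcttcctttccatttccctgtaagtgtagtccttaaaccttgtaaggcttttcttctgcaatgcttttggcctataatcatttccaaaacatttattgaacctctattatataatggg

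Over 143572 of these regions, those on chromosome 8 not being used here, GGAATG on either strand was found in the 300 bases around the middle of 27.1% of 6894 regions called in all 3 EGFR/NGFR-high and no Mix library, 20.4% of all, and 19.7% of 1207 with the reverse pattern. The AP-1 sequence, which reads the same on both strands, was found in 49.2%, 20.1% and 13.4% of the same regions. Both were found in 12.02%, 4.38% and 2.32%. These shares describe letters in windows, and no test was made on them.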

How the data were processed

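Single-cell RNA was captured with 10x 3′ droplet kits, and the authors aligned and counted it with Cell Ranger, aggregated libraries without depth normalization, filtered cells in Seurat on genes per cell and mitochondrial share, and deposited counts of UMIs per gene and cell with cluster, cell cycle phase and state labels. For ATAC-seq the authors aligned reads to hg38 with Bowtie2 2.3.4.1, used SAMtools 1.1 and called peaks in each library with MACS2 2.1.1.20160309. The deposited peak lists give the fold enrichment of each peak, a ratio over background, and its −log10 q. The Cell Ranger version is not given in the sources used here.

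Counts were summed per state, cluster, well or library and expressed as CPM with exact Poisson 95% intervals, or tested with edgeR 4.0.16 (R 4.3.3, filterByExpr, TMM, quasi-likelihood) with treatment and replicate as terms, all 8 libraries in 1 fit, and at least 20 primed cells per library. Differences between states used library, state and their interaction with treatment. For edgeR the SE given is the absolute log2 fold change divided by the square root of the test's F statistic. No doublet caller was run, and 0.303% of cells in the first experiment and 0.969% in the treatment experiment carried a cell barcode found in over 1 library. The replicate term follows the study's methods, by which the cells of 1 starting well were split over the conditions of a replicate. Same-numbered libraries deviated together, with correlations of the r2 minus r1 difference between conditions of 0.247 to 0.365 across genes. Library totals were 35882876 to 177318308 UMIs per well in the first experiment, 102738398 in the second and 70239657 to 122420544 per library in the treatment experiment.

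ATAC libraries held 148575 to 180941 distinct peak intervals. Peaks were assigned to gene starts of the given hg38 annotation within 1000 bp and log2 fold enrichment was tested with limma 3.58.1. Whether libraries of a sort are separate cultures is not stated, so p-values measure the spread between these libraries, which may be technical. Peaks were merged across libraries into regions with bedtools 2.31.1, and those seen in 3 or more were kept. Tests were also run on simulated data, with outcomes not given here.

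All 10 members were followed, and in some comparisons those that did not pass are given by count or range. From fixed lists (26 Hippo pathway genes, 18 other YAP/TEAD targets, 6 TGF-beta response genes, cell type markers) at most 4 genes per comparison were named, by smallest p or, with no test, by largest ratio, and for 7 members the 3 genes most alike. Members and lists were chosen with earlier results of these data known. Alternatives covered normalization (DESeq2 size factors), low-count filters, DESeq2 1.42.0, the replicate term, each library left out, G1 cells only, peak windows and peak thresholds.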

Additional observations from a re-analysis of the deposited data

Results flagged for a closer look

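The effect of TGFB1 on CCN2, which encodes a secreted matrix protein, differed between primed and drug-susceptible cells by -1.02 on the log2 scale (primed minus drug-susceptible, edgeR adjusted p = 0.0006), and the effect on WWTR1, which encodes the coactivator TAZ, by -0.55 (edgeR adjusted p = 6.5e-08). Both stand here because the difference itself passed a test. CCN2 in drug-susceptible cells went from 6.80 and 7.25 CPM to 25.0 and 21.7 CPM, and in primed cells from 14.9 and 14.9 CPM to 23.0 and 20.04 CPM. WWTR1 went from 178 and 167 CPM to 201 and 198 CPM in drug-susceptible cells, and from 322 and 363 CPM down to 232 and 253 CPM in primed cells.

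States were named after treatment, so the primed cells compared need not have been primed before it. Cluster makeup moved with both differences. Primed cells of TGFB1 libraries lay in cluster 4 (98.2% and 97.1%) and those of other libraries mostly in cluster 10, and cluster 3, with 94.9% of its cells from TGFB1 libraries, had CCN2 at 37.4 and 43.7 CPM there. With cluster 10 alone as primed the differences were -0.20 and -0.35, and without cluster 3 they were -0.02 and -0.22, with no edgeR adjusted p under 0.05 in either case.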

How the results depend on the processing

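Over 329 alternatives to 31 results on the members, 228 kept the result, 84 kept the direction but lost the call, 16 moved and 1 turned. A tested result was kept with the same direction and side of the threshold. The 16 that moved are ratios between states, which have no test, and they stayed on the same side of 1. In WM989 a ratio moved if its log2 value changed by at least the standard deviation of the log2 ratios of r1 and r2. In WM983B it moved if it left the counting interval. The one that turned was WWTR1 in drug-susceptible cells under TGFB1, at -0.14 without cluster 3, which holds mostly TGFB1 cells. With no replicate block the members past the threshold were 0 for PI3Ki in all cells, 1 for TGFB1 in drug-susceptible cells, 0 for PI3Ki in drug-susceptible cells and 0 for TGFBRi in primed cells, and no other count moved by over 1.5 times. The TGFBRi count in primed cells was also 0 with DESeq2, which gave CCN2 no adjusted p, and 0 with cluster 10 alone. The difference of the TGFB1 effect between states passed for 0 members with cluster 10 alone as primed and for 0 without cluster 3. The choices of clusters 3 and 10 were made after seeing the data.

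Leaving out 1 library at a time, the members past the threshold ranged from 4 to 8 for TGFB1, 0 to 1 for TGFBRi and 0 to 3 for PI3Ki in all cells, from 1 to 5, at 0 and from 0 to 3 in drug-susceptible cells, and from 0 to 1, 0 to 1 and at 0 in primed cells, and from 0 to 2 for the difference between states. A lone library of a condition is then assumed to vary like the others. In all cells under TGFB1 the calls of CCN2, ANKRD1, AMOTL2 and TEAD4 held in 13 of 13 alternatives, while TEAD2 lost its call in 6, TEAD3 in 4 and WWTR1 in 3. For ATAC-seq, CCN1 was not among the promoters tested within 500 bp or with a minimum -log10 q of 10, which left 0 members in each of the 3 sorts. Without centring the EGFR-high count was 0, and leaving out 1 library gave 0 to 1 for EGFR-high and 1 for the other two sorts. A replicate block by library number changed no ATAC count, and same-numbered libraries did not deviate together (r from -0.04 to 0.135). Depth limits CCN1 and ANKRD1 in WM989, and 25 to 271 primed cells outside TGFB1 libraries limit the results on primed cells of the treatment experiment. The causes of lost calls were not tested.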
